A study of Mus musculus with 4 samples.

Results

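Keratins are the intermediate filament proteins of epithelial cells. They were taken here as every deposited gene symbol made of Krt and a number, which gave 47 of 22869 symbols, each with 1 transcript in the tables. RNA had been sequenced from primary pancreatic ductal cells of adult C57BL/6 mice that had not been induced, and in both groups the cells received 500 nM 4-hydroxytamoxifen in culture over 4 days. The control cells came from littermates (n = 2 mice) of genotype HhexL/L, with floxed alleles of the homeobox gene Hhex and no Cre. The cells labelled knockout (n = 2 mice) were Sox9CreER;HhexL/L, which adds a tamoxifen-dependent Cre under the promoter of the ductal gene Sox9. The design names no group with the Cre but without floxed alleles, so Cre activity and Hhex loss cannot be told apart.

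A keratin filament is built from heterodimers of an acidic type I chain and a neutral to basic type II chain. Simple epithelia such as the pancreatic duct use Krt8 and Krt18, often with Krt7 and Krt19, whereas Krt5 and Krt14 mark the basal layer of stratified epithelia and other pairs serve their upper layers, hair and nail. Krt16 and Krt17 are known for their induction in wounded or stressed epithelium. The 47 genes held 25 type I and 21 type II members, with Krt222 counted in neither type. In the RefSeq table of assembly GRCm38.p6, which matched 46 of them, 24 type I genes lay on chromosome 11 and 20 type II genes on chromosome 15. Krt18 was the type I gene outside the chromosome 11 cluster, and its nearest coding neighbours were Krt8 and Eif4b.

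Libraries held 25257778 to 39582625 counts over all transcripts. Hhex, the targeted gene, measured 23.6 and 39.0 CPM (counts scaled to a common library size) in the labelled-knockout libraries versus 24.8 and 17.7 CPM in the controls. The count thus goes against the label, by which the group is named throughout, and the sources used here do not give which part of Hhex is removed. Xist reached 304 CPM in Hhex knockout replicate 2 but no more than 1.75 CPM elsewhere, so the sex of that mouse cannot be told apart from its other traits. The 7 ductal markers summed to 1417.7 and 1407.4 CPM in control libraries versus 1448.9 and 1366.6 CPM in those labelled knockout, and Epcam, an epithelial adhesion gene, was at 429.6 CPM or more in each library. Most of that sum was Epcam, Cdh1 and Spp1. For 6 of the 7 the groups did not overlap, where 17% of all transcripts tested lay lower and 19.1% higher without overlap. edgeR called 0 of them, with 3 at an unadjusted p under 0.05, a level that 7.51% of all transcripts reached. Sox9 was 2.46-fold and Tspan8 1.61-fold higher and Cftr 1.92-fold lower. DESeq2 called Sox9 and Cftr, where it called 1.75% of all transcripts. The 5 acinar markers and the 4 endocrine markers summed to at most 2.77 CPM per library. In such bulk RNA, fewer cells of a type and less RNA per cell cannot be told apart.

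Ductal cultures carried a simple epithelial keratin programme headed by Krt18 and Krt8. Levels of different genes are compared as deposited RPKM (reads per kilobase of transcript, scaled to library total). Krt18, the main type I chain of simple epithelia, measured 3304 and 4422 RPKM in control libraries versus 5229 and 3351 RPKM in those labelled knockout. It ranked 2 among all symbols in control replicate 1 and 1 in each other library. Krt8, its type II partner, followed at 1381 and 1720 RPKM in control libraries versus 1902 and 1525 RPKM in the others, with ranks between 6 and 8. Every library therefore had both genes among its most abundant.

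Krt7 and Krt19 came next in all 4 libraries. Krt7, a type II keratin of ducts and glands, measured 370 and 534 RPKM in control libraries versus 635 and 632 RPKM in those labelled knockout. Krt19, a type I keratin widely used as a ductal marker, measured 322 and 419 RPKM versus 319 and 556 RPKM. Krt19 lay below Krt7 in each library, at 0.502 to 0.880 times its RPKM. In Hhex knockout replicate 2 Krt19 held 0.166 times the RPKM of Krt18, against 0.0610 to 0.0976 times in the other libraries.

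The step from these 4 genes to the rest of the family was large. Krt7, Krt8, Krt18 and Krt19 together took between 98.4% and 99.6% of the keratin counts of a library. Krt6a, which the naming rule leaves out, is not in these counts, and its mean of 95.2 CPM was above that of Krt17 (40.9 CPM). Over the family, keratins held 1.70% (95% Wilson interval 1.69 to 1.70) and 1.88% (1.88 to 1.89) of the counts in the controls, with 1 transcript standing for each gene. The shares were 1.98% (1.98 to 1.99) and 1.68% (1.67 to 1.68) in the libraries labelled knockout. These intervals cover counting error only, and the groups overlapped.

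Type I RPKM exceeded type II RPKM in every library. The type I sum was 2.08 and 2.17 times the type II sum in control libraries versus 2.18 and 1.81 times in those labelled knockout. For the partners Krt18 and Krt8 alone the ratio was 2.39 and 2.57 in control libraries versus 2.75 and 2.20 in the others, so the groups again overlapped. The Krt8 value is less certain than that of Krt18. Of the 50-base words in the Krt8 transcript of GENCODE M21, 29.7% also occur in another gene, chiefly the pseudogene Krt8-ps, against 0.720% for Krt18 and none for Krt19, Krt20 and Krt23.

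**Figure D1:**
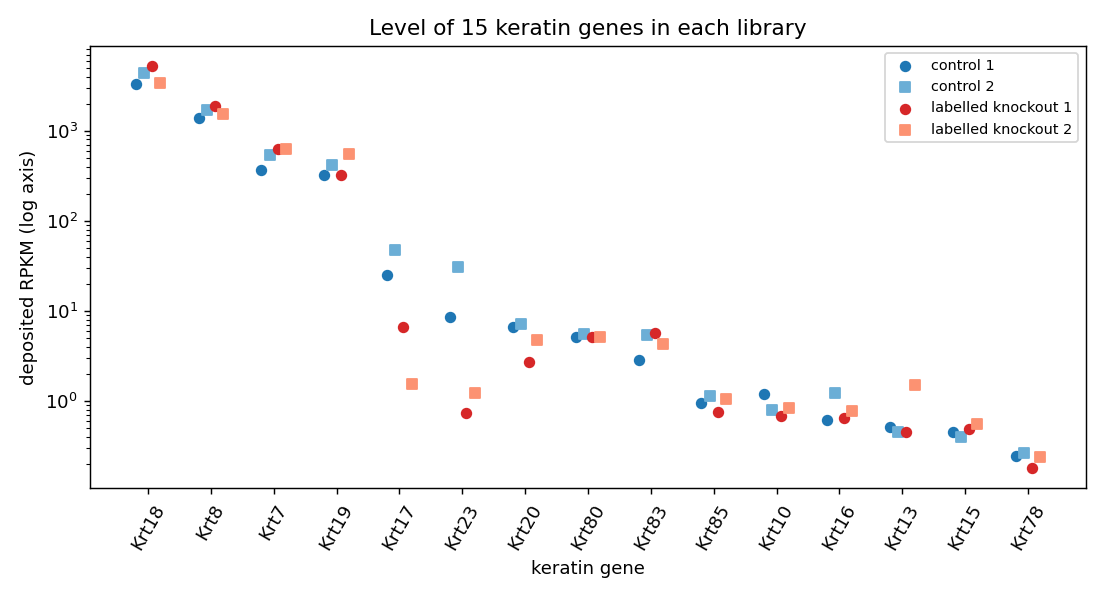
Deposited RPKM (log axis) of the 15 keratin genes with the highest mean CPM among those of the naming rule (Krt6a is not shown), 1 point per library, ordered by mean RPKM. Krt18, Krt8, Krt7 and Krt19 lie between 319 and 5229 RPKM in every library, while Krt17 and Krt23 differ most between the groups and all other genes lie under 10.

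Below the 4 main genes, 5 members had a mean of at least 5 CPM. They were Krt17 and Krt23, Krt20, a keratin of intestinal and urothelial surface cells, Krt80, a type II keratin of differentiating epithelia, and the gene deposited as Krt83. That transcript, NM_001003668, carries the symbol Krt87 in the RefSeq table, where it is the direct neighbour of Krt7. Krt83 (now Krt87) measured 2.88 and 5.47 RPKM in control libraries versus 5.69 and 4.28 RPKM in the others. Since 36.9% of its 50-base words occur in other genes, mostly Gm49425 and the hair keratins Krt81 and Krt86, its count is uncertain as that of a separate gene. Krt80 was the steadiest of the 5, between 5.10 and 5.61 RPKM in all libraries. The order of Krt20, Krt80 and Krt83 changed from library to library, so their levels are not ranked.

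Upstream sequence is shown for Krt18, the most abundant member, for Krt7, the abundant member whose groups did not overlap, and for the neighbouring genes Krt20 and Krt23, both lower in the libraries labelled knockout. Each line gives the 250 bases before the RefSeq start in GRCm38.p6, 5′ to 3′ on the gene's strand. Capitals mark a GC box (GGGCGG) or a TATA box (TATAAA) on either strand.
Krt18, chr15:102027966-102028215, plus strand: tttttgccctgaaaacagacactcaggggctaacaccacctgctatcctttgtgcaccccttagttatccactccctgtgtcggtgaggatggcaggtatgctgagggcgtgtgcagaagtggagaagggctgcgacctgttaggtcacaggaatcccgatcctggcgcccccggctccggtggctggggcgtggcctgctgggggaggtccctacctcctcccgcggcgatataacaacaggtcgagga
Krt7, chr15:101412153-101412402, plus strand: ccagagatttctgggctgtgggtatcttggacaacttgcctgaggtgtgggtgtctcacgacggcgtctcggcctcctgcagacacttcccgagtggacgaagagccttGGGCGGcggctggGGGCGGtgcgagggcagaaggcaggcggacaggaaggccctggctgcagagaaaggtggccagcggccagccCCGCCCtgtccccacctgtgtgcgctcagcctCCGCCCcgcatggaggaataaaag
Krt20, chr11:99438154-99438403, minus strand: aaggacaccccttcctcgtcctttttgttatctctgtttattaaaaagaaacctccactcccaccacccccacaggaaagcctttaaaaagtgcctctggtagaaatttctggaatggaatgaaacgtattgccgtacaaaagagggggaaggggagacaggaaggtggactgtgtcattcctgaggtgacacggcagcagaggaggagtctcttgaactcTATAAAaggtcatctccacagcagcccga
Krt23, chr11:99493121-99493370, minus strand: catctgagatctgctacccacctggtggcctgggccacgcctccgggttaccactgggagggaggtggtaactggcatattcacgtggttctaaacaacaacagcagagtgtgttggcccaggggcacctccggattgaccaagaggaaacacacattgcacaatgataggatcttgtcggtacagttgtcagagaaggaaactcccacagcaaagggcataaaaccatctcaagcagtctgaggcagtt
Krt7 held 4 GC boxes, between 24 and 141 bases before the start, and Krt20 held a TATA box 29 bases before it. No exact match to either motif, to the AP-1 motif TGANTCA or to the homeodomain core TAATTA was found in the Krt18 and Krt23 windows, which says only that these letters are absent there. Over the family, TATAAA occurred in 15 of 33 keratin promoters in the table (45.5%) against 12.4% of all 32851 promoters. The GC box occurred in 2 of 33 (6.06%) against 32.7%, TGANTCA in 1 of 33 (3.03%) against 6.75% and TAATTA in 5 of 33 (15.2%) against 4.84%. The 33 hold 1 promoter per gene, without Krt17 and Krt19, whereas the 32851 were not reduced to 1 per gene. These are counts of letters, not of bound factors.

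The comparison of the groups asks which keratin transcripts of ductal cells differ when Hhex is targeted. Krt17 and Krt23 stood several-fold lower in both libraries labelled knockout and Krt20 1.94-fold lower, while Krt8, Krt18 and Krt19 overlapped between groups. The edgeR quasi-likelihood test, adjusted over all 20949 transcripts, called 0 of the 35 keratins that passed the filter on low counts. Over all transcripts it called 0.153%, with 0.105% higher (22 transcripts) and 0.0477% lower (10). That split depends on the scaling, since 0 higher and 5 lower were called with library totals. At an unadjusted p under 0.05 there were 3 keratins, all lower (8.57% of those tested), where 7.51% of all transcripts reached that level, 2.81% lower and 4.7% higher. The 3 were Krt17, Krt23 and Krt20. DESeq2 called 2 of the 35, Krt17 and Krt23, both lower, where it called 1.75% of all transcripts, with 0.63% lower. From here levels of a gene across libraries are CPM of the TMM-scaled library.

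Krt23, a type I keratin described in reactive bile ductules of injured liver, differed most. It measured 18.5 and 61.8 CPM in control libraries versus 1.42 and 2.52 CPM in those labelled knockout. Both labelled-knockout values lay far below the lower control, although the controls themselves differed 3.34-fold. The mean was 40.2 ± 30.6 CPM (SD, n = 2) in the controls and 1.97 ± 0.775 CPM (SD, n = 2) in the others, a log2 fold change of -4.37 ± 0.63 (SE) with a 95% interval of -5.83 to -2.91. Krt23 missed the threshold in edgeR (adjusted p = 0.0670). Other tools placed it past the threshold, DESeq2 with an adjusted p of 0.000125 and limma-trend on log2(RPKM + 1) with 0.00094 and a log2 fold change of -3.14.

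Krt17, the wound-associated type I keratin, measured 53.5 and 94.4 CPM in control libraries versus 12.6 and 3.13 CPM in those labelled knockout. The groups did not overlap, and the labelled-knockout libraries differed 4.01-fold from each other. Means were 74.0 ± 28.9 CPM (SD, n = 2) and 7.85 ± 6.67 CPM (SD, n = 2), and the log2 fold change was -3.21 ± 0.54 (SE) with an interval of -4.47 to -1.95. In edgeR the adjusted p was 0.111. DESeq2 gave 0.0347, and limma-trend on log2(RPKM + 1) gave 0.0011. The lower of the labelled-knockout values was that of the Xist-positive library, and without that library the log2 fold change was -2.57. Of the 50-base words in the Krt17 transcript, 3.995% occur in other genes.

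Krt17 is also a gene of basal cells. The 9 basal and squamous markers summed to 122 and 156 CPM in control libraries versus 137 and 197 CPM in the others, most of it Itgb4 (78.8 to 142 CPM), and Trp63, the transcription factor that defines basal cells, lay between 0.214 and 1.02 CPM. Of the 8 markers tested 3 had negative log2 fold changes (Trp63 -0.50, Dsc3 -0.49 and Col17a1 -0.86). The other 5 were positive (Dsg3 0.23, Itgb4 0.34, Ivl 0.11, Sprr1a 0.15 and Lor 0.80). For these markers edgeR, DESeq2 and limma-trend called 0, with none at an unadjusted p under 0.05 in edgeR. Their part in the Krt17 values was not tested. Krt5 and Krt14, the basal pair, stood at or below 1.31 and 1.24 CPM in each library. Krt16, the other type I keratin induced in wounds, measured 1.35 and 2.51 CPM in control libraries versus 1.29 and 1.61 CPM in the others, with an edgeR adjusted p of 0.912. Krt6a, a type II partner of Krt16 and Krt17 that the naming rule leaves out, measured 79.4 and 129.6 CPM versus 70.8 and 101 CPM. Its groups overlapped (log2 fold change -0.28 ± 0.26 SE, edgeR adjusted p = 0.897), and 61.96% of its words occur in other genes, mainly Krt6b.

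Krt20 showed a smaller difference. It measured 18.3 and 17.9 CPM in control libraries, which lay within 1.02-fold of each other, versus 6.54 and 12.3 CPM in the libraries labelled knockout. The log2 fold change was -0.95 ± 0.29 (SE), with an interval of -1.62 to -0.28 and an edgeR adjusted p of 0.412. DESeq2 gave an adjusted p of 0.122. Krt20 and Krt23 are direct neighbours on chromosome 11, and the other coding neighbours of the pair, Krt12 and Krt39, stood at or below 0.729 CPM in all libraries.

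**Figure D2:**
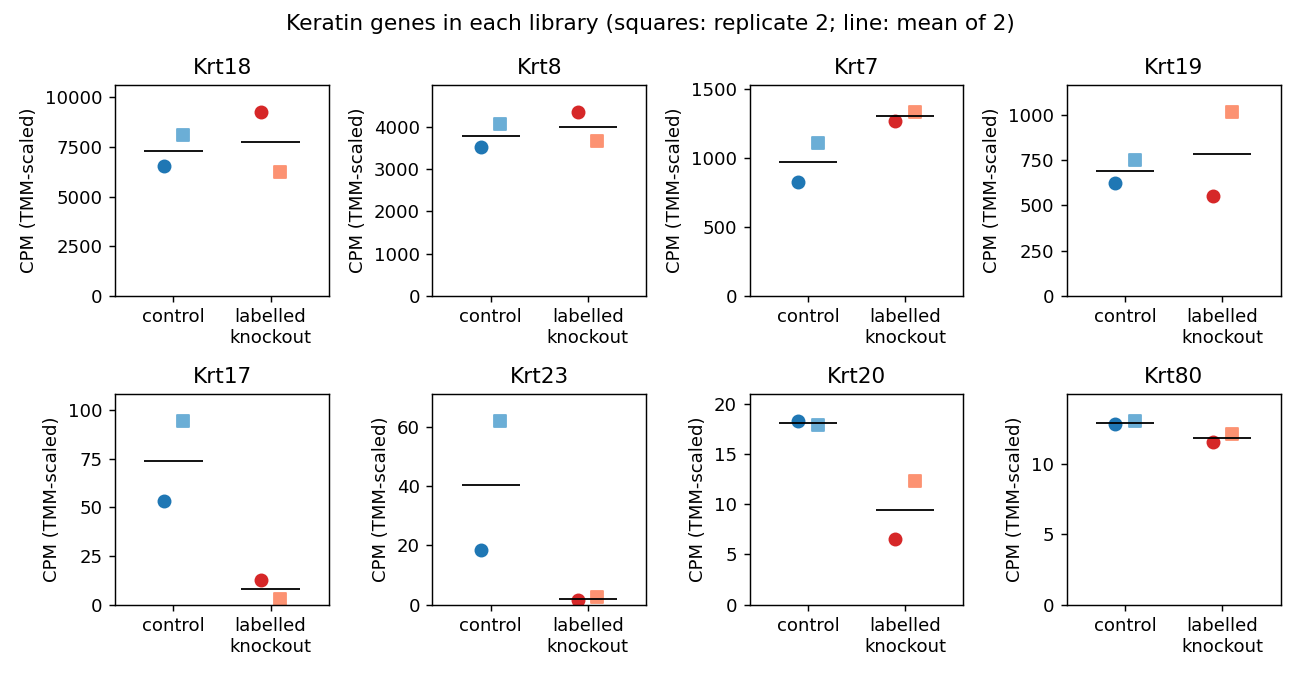
TMM-scaled CPM of 8 keratin genes in each library, on axes that start at 0, with replicate 1 as circles, replicate 2 as squares and the group mean as a line. Krt17, Krt23 and Krt20 are lower in both libraries labelled knockout, Krt7 is higher in both, and Krt18, Krt8 and Krt19 overlap.

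Among the 4 main genes only Krt7 separated the groups. Krt7 measured 828 and 1108 CPM in control libraries versus 1272 and 1331 CPM in those labelled knockout. The controls differed 1.34-fold, about as much as the groups did, and the log2 fold change of 0.43 ± 0.24 (SE) had an interval of -0.13 to 0.98 (edgeR adjusted p = 0.770). Mesothelial cells also make these keratins. The 5 mesothelial markers summed to 1586 and 2015 CPM in control libraries versus 3143 and 4493 CPM in the others, almost all of it Msln (log2 fold change 1.08, adjusted p = 0.412 in edgeR and 0.000180 in DESeq2), while Upk3b, Wt1 and Lrrn4 were each at or below 1.87 CPM. Upk1b, a uroplakin gene, measured 0.474 and 0.487 CPM in control libraries versus 2.14 and 3.61 CPM in the others, without overlap (5.87-fold, adjusted p = 0.200 in edgeR, 0.00322 in DESeq2 and 0.00906 in limma-trend on log2(RPKM + 1)). Their part in the Krt7 values was not tested.

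Krt18, Krt8 and Krt19 did not separate the groups. Krt18 measured 6531 and 8094 CPM in control libraries versus 9242 and 6234 CPM in the others, so that 1 labelled-knockout library was the highest and 1 the lowest. Its log2 fold change was 0.08 ± 0.42 (SE), with an interval of -0.91 to 1.07. Krt8 measured 3521 and 4060 CPM versus 4336 and 3658 CPM, with a log2 fold change of 0.08 ± 0.32 (SE) and an interval of -0.67 to 0.82. Krt19 measured 625 and 753 CPM versus 553 and 1014 CPM, with a log2 fold change of 0.18 ± 0.30 (SE) and an interval of -0.52 to 0.89. The interval of Krt18 thus reaches about 1 log2 unit to either side of 0. The Krt18 values of the labelled-knockout libraries alone differed 1.48-fold, and those of Krt19 1.84-fold.

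Krt80 was close to level, whereas the value of Krt83 was less certain. Krt80 lay between 11.6 and 13.01 CPM in all libraries. Its groups did not overlap but differed by a log2 fold change of only -0.12 ± 0.17 (SE). Krt83 measured 7.43 and 13.1 CPM versus 13.1 and 10.4 CPM, and its controls differed 1.76-fold. Its log2 fold change was 0.21 ± 0.29 (SE), with an interval of -0.46 to 0.88. The edgeR adjusted p values of Krt80 and Krt83 were 0.936 and 0.934.

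**Figure D3:**
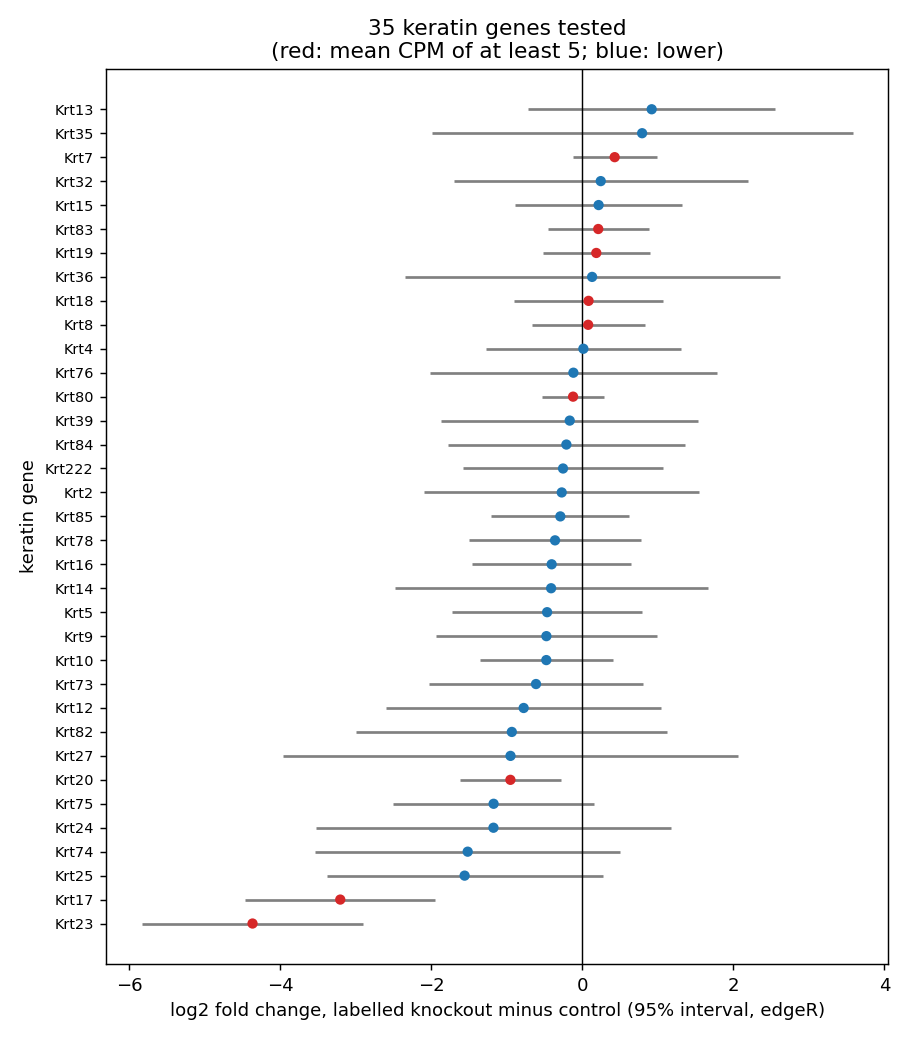
Log2 fold change (labelled knockout minus control) of the 35 keratin genes tested, with the 95% interval from edgeR, in red for a mean CPM of at least 5. The intervals of Krt23, Krt17 and Krt20 lie below 0, and those of the other 32 genes include 0.

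By class, the 6 simple epithelial keratins divided into 4 with a positive and 2 with a negative log2 fold change, with a median of 0.08. All 3 tested genes of the class set here as wound and stress, Krt16, Krt17 and Krt75, were negative, and its member Krt42 was not tested. Of these only Krt16 and Krt17 are described above as induced in wounds, so the class is not read as a wound response. Their median of -1.18 was the value of Krt75, which lay at or below 1.31 CPM in each library. Krt16 lay at or below 2.51 CPM. Of 13 basal and stratified keratins tested 10 were negative, and of 12 hair and inner root sheath keratins 8 were negative. edgeR called no gene in any class. Over the 35 genes the median log2 fold change was -0.29, against -0.01 over all transcripts tested, and 24 (68.6%) were negative against 51.6% of all transcripts and 11 (31.4%) positive against 48.3%. Groups did not overlap for 10 keratins, 9 lower (25.7%, against 17% of all transcripts) and 1 higher (2.86%, against 19.1%). Of these, 4 lower and 1 higher had a mean of at least 5 CPM. Among the 38 members with a mean under 5 CPM, tested or not, 8 lay lower and 3 higher without overlap.

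Of the 24 genes with a negative value 20 were close to silent. Of the 47 members, 38 had a mean under 5 CPM, from 0.0830 to 2.46 CPM. They included the basal genes Krt5 and Krt14, the suprabasal Krt1 and Krt10, and the hair keratins. The 6 with the highest means were Krt10, Krt85, Krt16, Krt13, Krt15 and Krt78. Krt13, a keratin of wet stratified linings such as the oesophagus, reached 2.65 CPM in Hhex knockout replicate 2 against 0.750 to 0.947 CPM elsewhere. Of the 38 genes 26 passed the filter, and 20 of these had negative and 6 positive log2 fold changes, with a smallest unadjusted p of 0.0748 in edgeR. The 12 genes that did not pass had at most 22 counts in any library. Of the 38, 3 (Krt27, Krt31 and Krt40) had 0 counts in 1 library, where 3 counts would allow at most 0.122 CPM.

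Without control replicate 1 the balance of the family was 20 negative to 18 positive, with a median of -0.05, and without Hhex knockout replicate 2 it was 30 to 7, with a median of -0.63. The level of the 38 genes also differed between libraries of the same group. In control replicate 1 they had the highest CPM of the 4 libraries in 21 of 38 cases, and their median RPKM was 0.247 there and 0.110 in the other control, against 0.114 and 0.186 in the labelled-knockout libraries. Olfactory receptor genes, a set of 1101 symbols that ductal cells are not known to use and that was chosen after values were seen, had medians of 0.0558, 0.0309, 0.0224 and 0.0462 RPKM in the same order. The counts of 1 transcript per gene came to 48.6%, 57.8%, 61.8% and 55.2% of the library total that the deposited RPKM imply. Control replicate 1 had the highest median of both sets and the lowest percentage. Hhex knockout replicate 1 had the highest percentage, and its keratin median of 0.114 RPKM lay close to the 0.110 RPKM of control replicate 2. The part of this percentage in the fold changes of the low keratins was not tested.

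**Figure D4:**
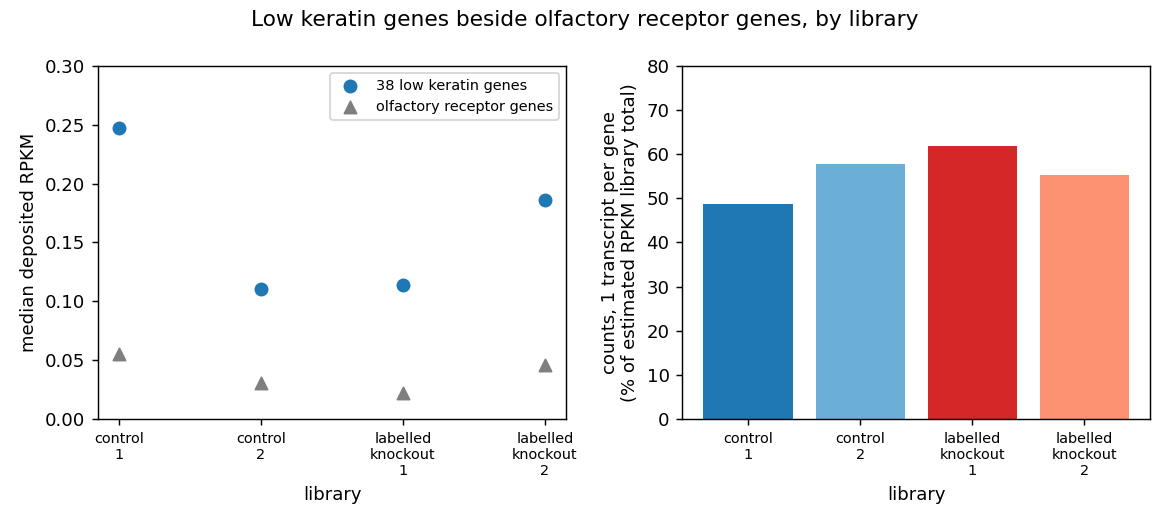
Left, median deposited RPKM of the 38 keratin genes with a mean under 5 CPM (circles) and of 1101 olfactory receptor genes (triangles) in each library. Right, counts of 1 transcript per gene as a percentage of the library total implied by RPKM, where control replicate 1 has the highest medians and the lowest share, 48.6%.

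Leaving out single libraries shows which values carry the comparison, although 1 library then stands for a group. The log2 fold change of Krt23 lay between -4.99 and -3.21 and that of Krt17 between -4.58 and -2.57, both negative each time. Krt20 lay between -1.48 and -0.58. Calls from these fits are not read for single genes, because 1 library gives no spread within its group. Krt7 stayed positive, from 0.23 to 0.69. The sign of Krt18 and Krt8 turned negative without control replicate 1 or Hhex knockout replicate 1, and that of Krt19 without Hhex knockout replicate 2 (-0.33).

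**Figure D5:**
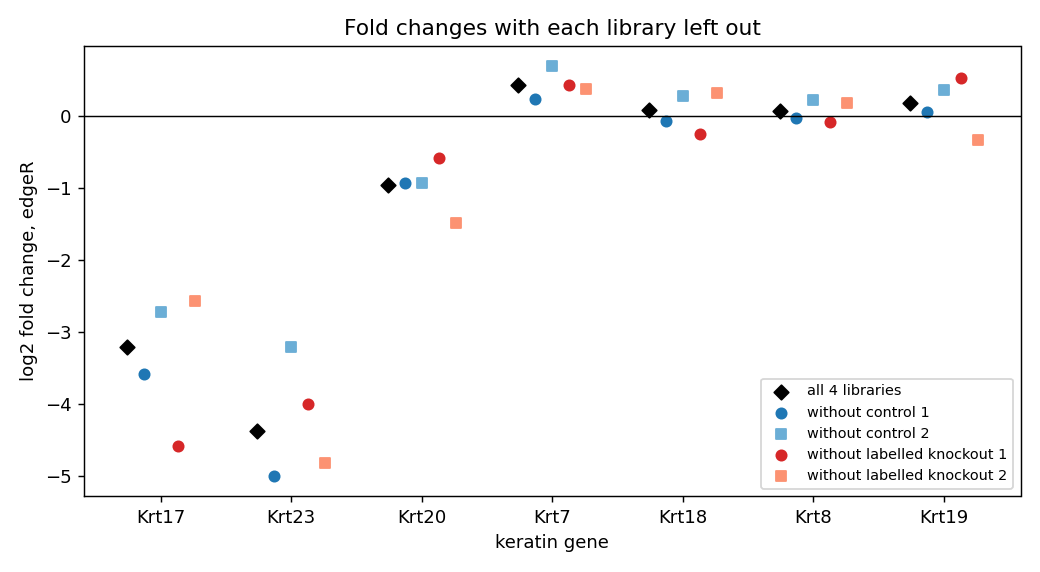
edgeR log2 fold changes of 7 keratin genes with all libraries (diamonds) and with each library left out. Krt17, Krt23 and Krt20 stay below 0 and Krt7 above 0 in every case, whereas Krt18, Krt8 and Krt19 fall on both sides of 0.

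Genes that act with keratins were read from lists. Of 10 other intermediate filament genes 8 were tested and edgeR called 0, with 2 positive and 6 negative log2 fold changes. An unadjusted p under 0.05 was reached by 2 of the 8, against 7.51% of all transcripts. Vim, the mesenchymal filament gene vimentin, measured 12.3 and 19.9 CPM in control libraries versus 39.0 and 47.9 CPM in the others (log2 fold change 1.44 ± 0.24 SE, edgeR adjusted p = 0.111). Nes, which encodes nestin, measured 37.7 and 28.1 CPM versus 3.96 and 10.9 CPM (log2 fold change -2.17 ± 0.40 SE, edgeR adjusted p = 0.147). DESeq2 and limma-trend on log2(RPKM + 1) called both genes, with adjusted p values of 2.86e-05 and 0.00968 for Vim and 2.88e-05 and 0.00409 for Nes. Over all transcripts DESeq2 called 1.75%, and this limma-trend fit called 164 of 22292. The groups overlapped for neither gene, and Vim went in the opposite direction to Nes, Krt17 and Krt23. The 7 fibroblast and stellate markers summed to 10.97 and 4.46 CPM in control libraries versus 3.13 and 6.77 CPM in the others, and their part in the Vim values was not tested.

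The 10 plakin and desmosomal plaque genes, which anchor keratin filaments to cell junctions, were all tested. edgeR called 0, with 7 positive and 3 negative log2 fold changes. An unadjusted p under 0.05 was reached by 3 of the 10, against 7.51% of all transcripts. Ppl, the periplakin gene, measured 123 and 143 CPM in control libraries versus 183 and 395 CPM in the others (log2 fold change 1.12 ± 0.33 SE, edgeR adjusted p = 0.412). DESeq2 called Ppl (adjusted p = 0.0240) and no other gene of the list, where it called 1.75% of all transcripts, and limma-trend called none. Dsp, which encodes the desmosomal linker desmoplakin, measured 220 and 294 CPM versus 359 and 350 CPM (log2 fold change 0.46 ± 0.19 SE, edgeR adjusted p = 0.626). Pkp1, the third with a small unadjusted p, encodes plakophilin 1 and measured 35.9 and 50.2 CPM in control libraries versus 87.3 and 51.8 CPM in the others (edgeR adjusted p = 0.592). Among 6 filament regulators edgeR called 0, with 3 of 6 positive. An unadjusted p under 0.05 was reached by 1 of the 6 (Pnn, log2 fold change -0.40), against the same 7.51%. Among 5 regulators of basal keratin genes it called 0, none at an unadjusted p under 0.05, with 3 of 5 positive. DESeq2 and limma-trend called no member of these last lists.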

How the data were processed

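The authors deposited whole-number counts and RPKM values, by RefSeq transcript. Build mm9 and edgeR are named per the submitters' processing notes. The aligner, counter and strand setting are not given in the sources used here. Counts of all 28644 transcripts were fitted together in R 4.3.3 with edgeR 4.0.16: filterByExpr (minimum count 10, minimum total 15), TMM factors, the quasi-likelihood F test and Benjamini-Hochberg adjustment over 20949 transcripts, threshold 0.05. The other 7695 transcripts were not tested. Per gene, the transcript with the highest mean count was read. Genes with a mean of at least 5 CPM or an unadjusted p under 0.05 were named, plus 6 lower ones. Alternatives used DESeq2 1.42.0 and limma 3.58.1 on log2 RPKM with a pseudocount of 1 or 0.1 (RPKM of at least 0.1 in 2 libraries), other scaling, filters and fits, and each library left out. The members, lists and tests were chosen with earlier results of these data known. Promoters came from a RefSeq table of GRCm38.p6 and transcript words from GENCODE M21, so no coordinate refers to mm9. In 30 of 33 keratin promoters the final bases were found in a GENCODE transcript of the gene.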

Additional observations from a re-analysis of the deposited data

How the results depend on the processing

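The number of transcripts called, 32 in edgeR, was 5 with library totals, 5 with upper-quartile factors, 4 with CPM of at least 1 in 2 libraries, 366 with DESeq2, 64 with robust quasi-likelihood, 164 and 165 with limma-trend on log2(RPKM + 1) and log2(RPKM + 0.1), 2 with 1 transcript per gene and 14 with counts summed per symbol. With a library left out it ran from 0 without control replicate 1 (517 at an unadjusted p under 0.05) to 1911 without Hhex knockout replicate 2. The number of keratins called, 0, was 2 with DESeq2 and 2 with either limma-trend fit, and with a library left out from 0 to 3. Over the 12 alternatives that keep every library, 1 of which (the legacy quasi-likelihood method) was chosen after seeing the data, the adjusted p of Krt23 ran from 0.000125 to 0.503 and that of Krt17 from 0.0011 to 0.593. Their log2 fold changes ran from -4.41 to -3.14 and from -3.38 to -3.02. With a library left out, signs turned for 6 of the genes named by level or p or as the 6 lower ones. Log2 fold changes ran from -0.25 to 0.32 for Krt18, -0.077 to 0.22 for Krt8 and -0.33 to 0.53 for Krt19. They ran from -0.15 to 0.70 for Krt83, -0.80 to 0.13 for Krt16 and -0.22 to 1.58 for Krt13. Signs also turned for some genes outside that rule, such as Krt14, from -1.14 to 1.72. The cause was not tested. Keratins were 1.25% and 1.39% of counts in control libraries versus 1.46% and 1.24% in the others when all transcripts of a symbol were summed, and 1.71%, 1.90%, 1.99% and 1.69% in the same order with Krt6a, Krt6b, Krt33a and Krt33b added. No paired analysis was possible because the labels give no replicate numbers that groups share. The 12 keratins left untested had too few counts for the filter.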
